A study of Mus musculus with 6 samples.

Results

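The 33 interferon-stimulated genes described here were chosen by symbol from the genes that mouse cells are known to switch on under interferon, and all 33 were found, 1 row each, among the 53342 genes of the table. RNA sequencing was carried out on dental pulp of C57BL/6 mice aged 3 months, from 3 WT samples (numbered 2, 4 and 5) and 3 MMP13KO samples (numbered 1, 2 and 6). MMP13KO mice, written Mmp13-/- below, lack the collagenase MMP13 in every cell from the germ line on, so that changes in pulp and changes in the blood, marrow or bone around it cannot be told apart. The study's methods take the mice as males with pulp from incisors, whereas the protocol in the labels names molars for both genotypes. The titles of the WT samples name molars too and those of the MMP13KO samples name no tooth. In bulk tissue a higher read count can come from more cells of a type or from more RNA per cell, and these cannot be told apart.

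Interferons are secreted proteins that warn neighbouring cells of infection or of nucleic acids in the wrong place. Type I and type III interferons bind receptors whose kinases phosphorylate transcription factors, STAT2 among them. With IRF9, STAT2 takes part in a complex that binds the interferon-stimulated response element (ISRE) in the promoters of target genes, while type II interferon acts through the gamma-activated site (GAS). The products of the target genes sense viral RNA, block translation, degrade RNA or hold viruses at membranes, and several of them feed back on the pathway itself.

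The response element was looked for in RefSeq promoter windows of the build GRCm38.p6, each 300 bases long, from 250 before to 50 after a transcription start. It was written as GAAANNGAAA, read on both strands, and the gamma-activated site as TTCNNNGAA. A window was held for 24 of the 33 genes, and 12 of these 24 carried at least 1 ISRE match, against 3.99% of all 27025 genes with a window. The GAS letters were found in 8 of the 24 genes (33.3%), against 9.55% of all genes, and the matches to the motifs overlapped in Ifitm3 and Bst2. The stretches shown were picked because they lie wholly before the transcription start and because both genes that rose and genes that did not pass the test carry them. Capitals mark the ISRE matches, and each stretch is written 5′ to 3′ on the strand of its gene.
Ifit1, chr19:34640765-34640833, plus strand: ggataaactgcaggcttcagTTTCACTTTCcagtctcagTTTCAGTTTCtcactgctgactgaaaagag
Ifit3, chr19:34583353-34583436, plus strand: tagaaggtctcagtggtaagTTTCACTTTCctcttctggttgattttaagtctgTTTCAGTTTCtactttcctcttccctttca
Oas3, chr5:120777705-120777754, minus strand: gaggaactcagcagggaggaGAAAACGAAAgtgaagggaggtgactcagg
Rsad2, chr12:26456543-26456592, minus strand: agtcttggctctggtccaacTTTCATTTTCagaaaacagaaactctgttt
Isg15, chr4:156200855-156200916, minus strand: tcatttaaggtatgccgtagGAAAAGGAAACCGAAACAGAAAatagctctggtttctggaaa
Bst2, chr8:71537567-71537622, minus strand: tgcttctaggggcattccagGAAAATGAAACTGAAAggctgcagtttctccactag
Stat2, chr10:128270256-128270305, plus strand: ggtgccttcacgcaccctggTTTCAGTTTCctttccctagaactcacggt

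Ifit1 and Ifit3 each carried 2 separate matches, Isg15 3 overlapping ones and Bst2 2 overlapping ones. Of the 12 with a match 5 were called over 2-fold higher in Mmp13-/- pulp and 7 at any fold, with a median log2 change of 1.10. Of the 12 without one these were 4 and 4 genes with a median of 0.59, and of the 9 genes that had no window 6 and 8 with a median of 1.07. Of all genes tested, 20.4% were called over 2-fold higher and 27.3% at any fold. The 4 of 12 genes without a match lie near the latter share. The difference between these groups of genes was not tested. These letters cover only part of the forms that the element takes, and no match says only that they were not in the window.

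Expression was measured as estimated read counts. A gene was called when its Benjamini-Hochberg adjusted p in edgeR's quasi-likelihood test was under 0.05 over the 24534 genes tested, and calls over 2-fold and at any fold were counted apart. Levels are normalised read counts, scaled to a common library size, and errors are SD over n = 3 samples of a genotype or the standard error (SE) of a log2 fold change. Library totals ran from 28442936 to 29980236 counts in WT and from 21561420 to 26547121 in Mmp13-/-. The targeted gene matched the labels, with 826 to 1072 normalised counts of Mmp13 in WT and 8.85 to 64.0 in the Mmp13-/- samples. Mmp13-/- sample 6 stood apart from the other 5, since the 13 genes that match the satellite transcript Gm10800 took 46.1% of its counts, against 5.87% and 10.3% in the Mmp13-/- samples 1 and 2 and at most 0.0445% in WT. Odorant and vomeronasal receptor genes, which pulp is not known to use, held 1199 CPM (counts scaled to library size) in sample 6, 308 and 356 in samples 1 and 2, and 17.8 to 20.8 in WT. Spread over exon length, that background would make up a median of 7.93% of the counts of the 33 genes in sample 6, 2.46% and 2.69% in samples 1 and 2, and at most 0.344% in WT. Markers of odontoblasts, the dentin-forming cells, held 3.59% to 4.35% of WT counts. Most of that was Col1a1 alone, with 968401 to 1154350 of the list's 1018500 to 1230940 normalised counts, so it is not a measure of odontoblasts. Skeletal muscle markers held 3.94% to 4.69%, so the tissue held more than pulp.

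Of the 33 interferon-stimulated genes, 15 (45.5%) rose over 2-fold in Mmp13-/- pulp and none fell. Over all genes tested, 20.4% were called over 2-fold higher and 9.68% over 2-fold lower. At any fold 19 genes (57.6%) rose and none fell, against 27.3% and 24.3% of all genes. The 3 Mmp13-/- samples lay above the 3 WT samples without overlap in 22 genes (66.7%) and below them in none, against 31.8% and 29.1% of all genes. The median log2 fold change of the 33 genes was 1.003, and that of all genes tested was 0.10. The genes that rose most were Ifit1, Ifi44, Ifit3 and Zbp1, whereas none of the 4 signalling factors, Stat2, Irf1, Irf7 and Irf9, was called. Leaving out Mmp13-/- sample 6 lowered the genes over 2-fold to 10, all of them among the 15, and the median to 0.54. In that fit 19.7% of all genes were called over 2-fold higher, and the median of all genes was 0.072.

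**Figure D1:**
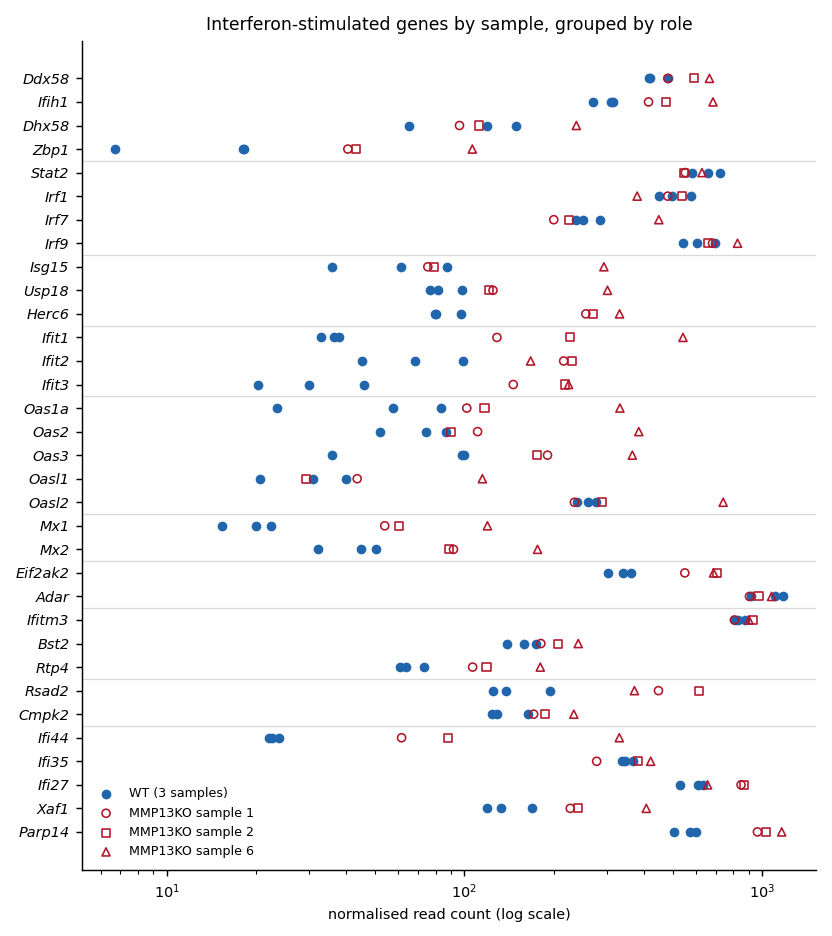
Normalised read count (log scale) of each of the 33 genes in every sample, with WT samples as filled circles and Mmp13-/- samples 1, 2 and 6 (MMP13KO in the key) as open circles, squares and triangles. Grey lines part the genes by role, and in 22 genes the open symbols all lie to the right of the filled ones.

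The Ifit family codes for proteins that bind viral RNA and block its translation. Among the groups of genes by role, its median log2 change of 2.61 was the highest, and all 3 members rose. Their genes lie side by side on chromosome 19 (GRCm38), from Ifit2 at chr19:34550694-34576419 to Ifit1 at chr19:34640871-34650009. Ifit1 had 37.8, 32.97 and 36.5 normalised counts in the WT samples 2, 4 and 5, compared with 129, 226 and 542 in the Mmp13-/- samples 1, 2 and 6. Every Mmp13-/- sample was more than 3 times as high as any WT sample, and sample 6 was the highest by far. The fitted change was 8.21-fold (log2 3.04, SE 0.47, adjusted p = 0.000662), and 2.30 on the log2 scale without sample 6 (adjusted p = 0.000456).

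Ifit3 had 20.3, 30.2 and 45.9 normalised counts in WT and 146, 218 and 224 in the Mmp13-/- samples, so here samples 2 and 6 were nearly equal. Its change was 6.11-fold (log2 2.61, SE 0.32, adjusted p = 0.000208). Ifit3 shares 97.4% of its transcript with the neighbouring copy Ifit3b at 95% identity or more, so reads could be split between them, and Ifit3b itself rose by a log2 of 2.03 (adjusted p = 0.000484). Ifit2 had 98.9, 45.2 and 68.3 normalised counts in WT and 215, 230 and 167 in the Mmp13-/- samples. It was lowest in sample 6 among the 3 Mmp13-/- samples, and rose 2.89-fold (log2 1.53, SE 0.28, adjusted p = 0.00167).

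The Oas family makes or resembles the enzymes that sense double-stranded RNA and switch on RNase L, and 3 of its 5 members rose over 2-fold. Oas3 had 36.0, 99.9 and 97.8 normalised counts in WT and 190, 175 and 366 in the Mmp13-/- samples, a log2 change of 1.63 (SE 0.40, adjusted p = 0.00664). Oas1a had 23.4, 83.4 and 57.7 in WT and 102, 117 and 333 in the Mmp13-/- samples (log2 1.71, SE 0.52, adjusted p = 0.0197), and shares 98.7% of its transcript with Oas1g. WT sample 2 held the lowest value of both genes, and sample 6 the highest.

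Oas2 had 51.9, 86.8 and 74.3 normalised counts in WT and 111, 90.2 and 385 in the Mmp13-/- samples (log2 1.44, SE 0.50, adjusted p = 0.0344). The gap between the genotypes was narrow outside sample 6, and without that sample the changes of Oas2 (log2 0.51, adjusted p = 0.155) and Oas1a (log2 0.99, adjusted p = 0.0908) no longer passed the test. The Oas2 call was also lost without WT sample 2, 4 or 5, and the Oas1a call without WT sample 2 (log2 1.26, adjusted p = 0.05005). Oasl1 and Oasl2, which code for OAS-like proteins, did not pass it. Oasl2 had 238, 278 and 260.5 normalised counts in WT and 234, 289 and 739 in the Mmp13-/- samples, so samples 1 and 2 lay at the WT level (log2 0.69, 95% interval −0.13 to 1.5, adjusted p = 0.141). Oasl1 had 20.6, 31.0 and 40.1 in WT and 43.6, 29.3 and 115 in the Mmp13-/- samples (log2 1.003, SE 0.51, adjusted p = 0.126).

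The Mx genes code for dynamin-like GTPases that trap viral particles, although Mx1 carries a disabling deletion in most laboratory strains. Both rose. Mx1 had 15.3, 19.97 and 22.5 normalised counts in WT and 54.0, 60.2 and 119 in the Mmp13-/- samples (3.96-fold, log2 1.99, SE 0.40, adjusted p = 0.00242). Mx2 had 44.8, 50.5 and 32.3 in WT and 91.9, 88.9 and 176 in the Mmp13-/- samples (2.77-fold, log2 1.47, SE 0.33, adjusted p = 0.00468). Neither overlapped between the genotypes, and each kept a change over 2-fold with any 1 sample left out.

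Rsad2 codes for viperin, which makes a chain-terminating nucleotide. It had 137, 125 and 194 normalised counts in WT and 448, 612 and 372 in the Mmp13-/- samples. All Mmp13-/- samples lay above WT, and sample 6 was the lowest of the 3 (3.14-fold, log2 1.65, SE 0.23, adjusted p = 0.000402). Cmpk2, its neighbour on chromosome 12 and a mitochondrial nucleotide kinase, had 124 to 163 normalised counts in WT and 171 to 233 in the Mmp13-/- samples, a log2 difference of 0.50 (SE 0.20) that missed the threshold (adjusted p = 0.0592).

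Among the 4 nucleic acid sensors, Zbp1 and Ifih1 rose. Zbp1, a sensor of Z-form nucleic acids that can start necroptosis, had 6.73, 18.1 and 18.2 normalised counts in WT and 40.6, 43.3 and 106 in the Mmp13-/- samples (4.38-fold, log2 2.13, SE 0.53, adjusted p = 0.00722). It was among the least abundant of the 33 genes, and the background would make up 25.2% of its counts in sample 6, the highest share of any of them. Ifih1, which codes for the long double-stranded RNA sensor MDA5, had 270.5 to 315 normalised counts in WT and 415, 474 and 683 in the Mmp13-/- samples (log2 0.80, SE 0.20, adjusted p = 0.00698). Ddx58, which codes for RIG-I, did not overlap between the genotypes but missed the threshold (log2 0.39, SE 0.16, adjusted p = 0.0600). Dhx58, which codes for the regulator LGP2, overlapped, with 65.2 to 149 normalised counts in WT and 96.3, 112 and 238 in the Mmp13-/- samples (log2 0.40, SE 0.38, adjusted p = 0.406).

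The 4 signalling factors did not pass the test, although Irf9 (log2 0.57, adjusted p = 0.0303) and Irf1 (log2 0.40, adjusted p = 0.0473) were called higher once the counts were corrected for GC content. Stat2, a transcription factor of the type I and III pathway, had 582, 721 and 656 normalised counts in WT and 551, 546 and 628 in the Mmp13-/- samples (log2 −0.19, 95% interval −0.50 to 0.13, adjusted p = 0.305). Irf9, its DNA-binding partner, had 542 to 695 in WT and 657 to 826 in the Mmp13-/- samples (log2 0.23, interval −0.11 to 0.58, adjusted p = 0.236). Irf1, an early target of type II interferon, had 448 to 576 in WT and 380 to 539 in the Mmp13-/- samples (log2 −0.12, interval −0.50 to 0.26, adjusted p = 0.594). The 3 intervals reach at most 0.58 from 0 on the log2 scale, short of 2-fold.

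Irf7, which amplifies type I interferon production and is itself induced by interferon, was split within the Mmp13-/- samples. It had 236, 285 and 249 normalised counts in WT, 199.5 and 225 in the Mmp13-/- samples 1 and 2 and 449 in sample 6. Samples 1 and 2 thus lay below every WT sample and sample 6 above, and the fitted change was small with a wide interval (log2 0.17, interval −0.46 to 0.79, adjusted p = 0.645). Without sample 6 it was −0.27 (adjusted p = 0.215), and after GC content correction it was 0.94 (adjusted p = 0.0559).

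ISG15 is a ubiquitin-like protein that is attached to other proteins, HERC6 is the main ligase for it in the mouse, and USP18 removes it and dampens the receptor. Herc6 had 79.7, 80.4 and 97.7 normalised counts in WT and 256, 270 and 332 in the Mmp13-/- samples, with the smallest SE of the 15 genes over 2-fold (3.32-fold, log2 1.73, SE 0.19, adjusted p = 0.000142). Its exons overlap those of Gm45193 on the same strand over 1269 bases, where reads could belong to either. Usp18 had 97.9, 76.8 and 81.7 in WT and 125, 121 and 302 in the Mmp13-/- samples (2.10-fold, adjusted p = 0.0261). Without sample 6 its change was 0.52 on the log2 scale and missed the threshold (adjusted p = 0.0686), and it missed it without WT sample 4 (0.0899) or WT sample 5 (0.0665) as well.

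Isg15 had 35.9, 61.2 and 87.2 normalised counts in WT, 75.4 and 79.2 in the Mmp13-/- samples 1 and 2 and 294 in sample 6. Samples 1 and 2 lay within the WT range, and the log2 change of 1.26 (SE 0.53) did not pass the test (adjusted p = 0.0702). DESeq2 called it (adjusted p = 0.0234). An unplaced gene model, AC151275.1, matches 63.8% of the Isg15 transcript.

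Eif2ak2 and Parp14 rose evenly. Eif2ak2 codes for PKR, the kinase that halts translation on double-stranded RNA, and had 362, 305 and 342 normalised counts in WT and 549.5, 703 and 686 in the Mmp13-/- samples (1.92-fold, log2 0.94, SE 0.15, adjusted p = 0.000876). Parp14, an ADP-ribosyltransferase, had 599, 507 and 571 in WT and 963, 1026 and 1162 in the Mmp13-/- samples (1.88-fold, log2 0.91, SE 0.14, adjusted p = 0.000658). Both lay just inside 2-fold, as Rtp4 (2.04-fold) and Xaf1 (2.07-fold) lay just outside it. Adar, the editing enzyme that marks double-stranded RNA of the cell itself, had 915 to 1174 in WT and 906 to 1075 in the Mmp13-/- samples (log2 −0.12, interval −0.44 to 0.21, adjusted p = 0.534), and its exons overlap the antisense gene Chrnb2 over 1365 bases.

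Of the membrane proteins, Rtp4 rose. Rtp4, a receptor-transporting protein, had 63.5, 60.7 and 73.0 normalised counts in WT and 107, 119 and 180 in the Mmp13-/- samples (log2 1.03, SE 0.25, adjusted p = 0.00712). Bst2, or tetherin, holds budding virus at the cell surface, and its genotypes did not overlap (139 to 174 against 181 to 241) but it missed the threshold (log2 0.41, SE 0.18, adjusted p = 0.0905). Ifitm3, which blocks viral fusion at endosomes, had 813 to 877 normalised counts in WT and 806 to 934 in the Mmp13-/- samples (log2 0.07, interval −0.22 to 0.36, adjusted p = 0.684), and was called higher after GC content correction (log2 0.51, adjusted p = 0.0106).

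Of the other 5 genes, 4 rose. Ifi44 had 23.8, 22.6 and 22.2 normalised counts in WT and 61.5, 87.9 and 331 in the Mmp13-/- samples. The WT samples were nearly equal and every Mmp13-/- sample was above them, with sample 6 carrying most of the 6.88-fold change (log2 2.78, SE 0.59, adjusted p = 0.00327), which was 1.71 without it (adjusted p = 0.00186). Xaf1, a gene of the apoptosis pathway, had 119 to 168 in WT and 227, 240 and 408 in the Mmp13-/- samples (log2 1.05, SE 0.25, adjusted p = 0.00659). Ifi27 had 528 to 634 in WT and 655 to 867 in the Mmp13-/- samples, with sample 6 the lowest (1.34-fold, adjusted p = 0.0434), and its call was lost in 5 of the 6 fits that left out 1 sample, all but the one without Mmp13-/- sample 6. Ifi35 was not called (log2 0.04, interval −0.36 to 0.43, adjusted p = 0.881), but was called higher after GC content correction (log2 0.68, adjusted p = 0.0267).

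**Figure D2:**
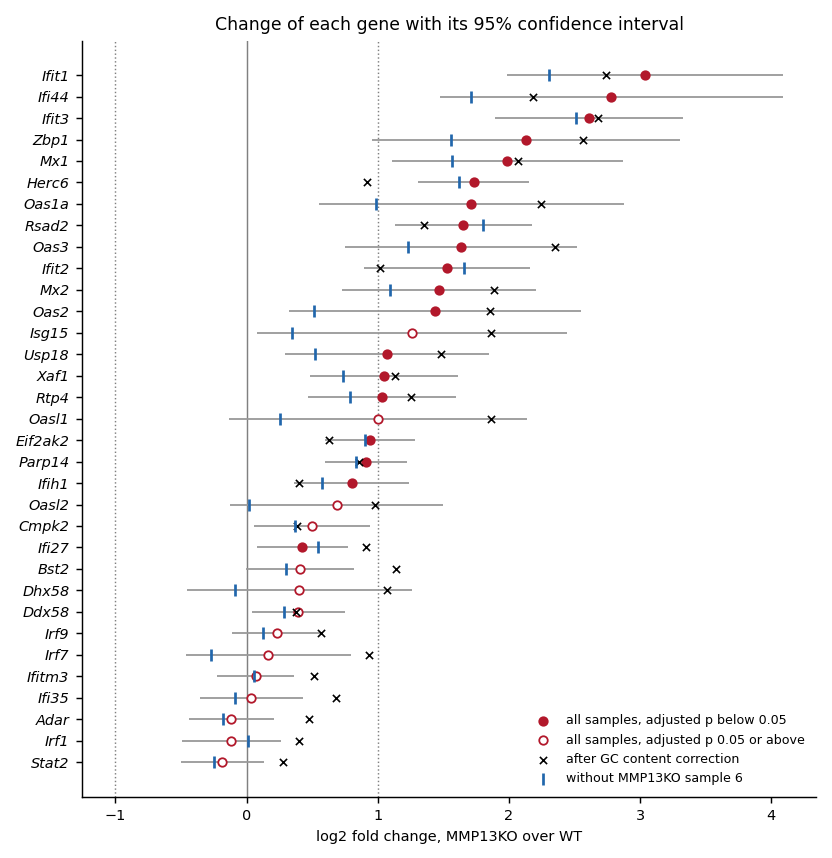
Log2 fold change of each gene, Mmp13-/- over WT, with its 95% confidence interval as a grey line, filled circles for genes with an adjusted p below 0.05 and open ones for the others. Crosses give the change after GC content correction and blue ticks the change without Mmp13-/- sample 6 (MMP13KO in the key), and dotted lines mark 2-fold. Ifit1 leads with 3.04 and Stat2 is last with −0.19.

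Levels between genes were compared per kilobase of exon. In WT, Ifitm3 stood highest at 1238 ± 49.2 normalised counts per kilobase, before Ifi27 at 402 ± 37.6 and Ifi35 at 203 ± 8.70, and these neighbours differed by more than their spread. Ifi44 (3.73 ± 0.136), Zbp1 (4.06 ± 1.87) and Mx1 (5.09 ± 0.956) stood lowest, with Zbp1 and its neighbours closer than its SD. The 5 genes of lowest WT level, these and Herc6 and Oas3, all rose over 2-fold. Of the 5 of highest level, Ifitm3, Ifi27, Ifi35, Bst2 and Adar, none did, a split noticed after the values were seen. The split depends on where the lower group ends. Oasl1, next above Oas3 at 11.72 ± 3.74 and closer to it than the SD of either, was not called. Mx2, next above Oasl1 at 11.77 ± 2.57, rose over 2-fold. WT level is also the denominator of the change, so the split alone does not tie the rise to level. In Mmp13-/- sample 6, background would make up 14.0% to 25.2% of the counts of the 5 lowest. For the 5 highest it was 0.570% to 5.73%. With background subtracted, the 5 lowest rose by a log2 of 1.69 to 2.84. The median log2 change of all genes tested was 1.30 without a filter and 0.029 with at least 10 counts in every sample. Whether other genes split by level alike was not tested. In Mmp13-/- pulp Ifitm3 (1299 ± 98.2) and Ifi27 (539 ± 80.0) still led, while Ifit1 reached 113 ± 81.3 and Ifit3 112 ± 24.9, levels at which WT held Irf9 (114 ± 14.3) and Stat2 (110 ± 11.8).

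The Mmp13-/- samples did not rise alike. Relative to each gene's WT mean, the median of the 33 genes was 0.54 and 0.55 on the log2 scale in samples 1 and 2 and 1.29 in sample 6, against 0.05, 0.06 and 0.10 over all genes tested. Sample 6 was the highest of the 3 in 27 of the 33 genes and the lowest in 4, whereas it was the highest in 37.2% of all genes tested. The genes in which it exceeded the mean of samples 1 and 2 the most were Ifi44 (log2 2.15), Oas2 (1.94) and Isg15 (1.93). The 4 in which it was lowest were Rsad2 (−0.51), Irf1 (−0.43), Ifit2 (−0.42) and Ifi27 (−0.39). Rsad2 and Ifit2 thus rose over 2-fold with the other pattern.

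**Figure D3:**
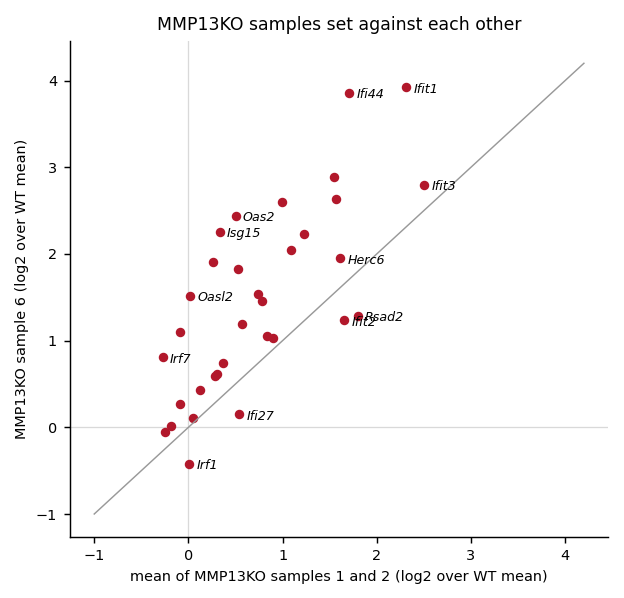
Each point is 1 of the 33 genes, with the mean of Mmp13-/- samples 1 and 2 on the x axis and Mmp13-/- sample 6 on the y axis, both as log2 over the WT mean (MMP13KO in the axis labels). Points above the diagonal are higher in sample 6. Ifi44, Oas2 and Isg15 lie farthest above it and Rsad2 and Ifit2 below.

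Base composition moved with the change over all genes. Among all genes tested, the median log2 change was 1.18 over the 2450 genes of lowest GC content and −0.87 over the 2450 of highest. The 33 genes ran from 39.4% GC (Herc6) to 56.3% (Oasl1) with a median of 50.6%, close to the median of 49.1% over all genes tested. Their changes followed GC content with a Spearman correlation of −0.48 over 33 genes measured in the same 6 libraries, and of 0.03 after the counts were corrected for GC content. Each of the 33 genes lay above the median of all genes within 1 percentage point of its own GC content, from 0.03 above for Stat2 on the log2 scale.

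After that correction 17 genes were called over 2-fold higher and 26 at any fold, with none lower, against 16.3% and 23.8% of all genes called higher. The median was 1.07 against 0.22 over all genes. Of the 15 genes over 2-fold, 14 stayed over it, and Herc6, at the lowest GC content, fell under it (log2 0.92, adjusted p = 0.0171). Ifih1 lost its call (log2 0.40, adjusted p = 0.246). Isg15 (log2 1.86, adjusted p = 0.0449) and Oasl1 (log2 1.86, adjusted p = 0.0358) gained one, as did Bst2 (log2 1.14, adjusted p = 0.00378) and, as given above, Irf9, Ifitm3 and Ifi35. Adar turned from −0.12 to 0.48 (adjusted p = 0.0266) and Irf1 to 0.40 (adjusted p = 0.0473). The sign of these genes also turned under other scalings and filters, as given below. With the background subtracted instead, 17 genes were over 2-fold higher and the median was 1.08. In that fit 16.2% of all genes tested were over 2-fold higher, and the median of all genes was 0.045.

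**Figure D4:**
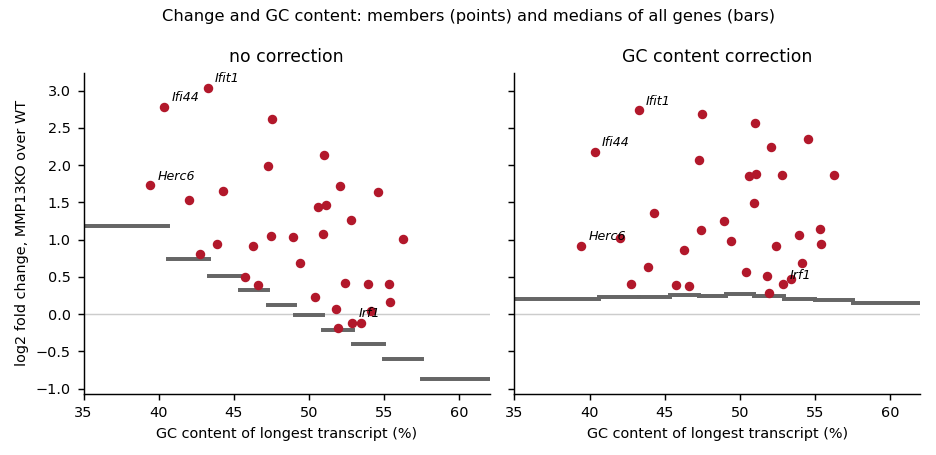
Log2 fold change, Mmp13-/- over WT (MMP13KO on the axis), against the GC content of each gene's longest transcript, without correction on the left and with GC content correction on the right. Red points are the 33 genes and grey bars the medians of all genes in 10 bins of GC content, which run from 1.18 to −0.87 on the left. All red points lie above the median of genes of like GC content.

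Upstream of these genes, the 22 interferon ligands had few counts. Summed over the list, WT samples 2, 4 and 5 held 62.4, 38.0 and 31.9 counts, mostly of Ifnk and Ifnz, with 118, 97.9 and 162 in the Mmp13-/- samples 1, 2 and 6, where the background alone would give 25.0, 29.2 and 79.8. Ifnk and Ifnz were the only ligands high enough to be tested, and neither was called (adjusted p = 0.7001 and 0.574). Of the other 20, 16 had no count in any WT sample. Ifnb1 had no count in WT and 1.68, 0 and 15.8 normalised counts in the Mmp13-/- samples 1, 2 and 6. Many Ifna genes are near copies of each other, so reads could not be told apart between them.

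Few receptors and kinases were called. Of 9, none was called over 2-fold, against 20.4% of all genes higher and 9.68% lower. At any fold 1 rose and 2 fell, against 27.3% and 24.3% of all genes. The median log2 fold change of the 9 genes was 0.0025. The 3 genes called, named here after their values were seen, were Ifngr1 (log2 0.48, adjusted p = 0.0149), Ifngr2 (−0.57, adjusted p = 0.0115) and Tyk2 (−0.71, adjusted p = 0.00321). After GC content correction Tyk2 was no longer lower (log2 0.15, adjusted p = 0.301), while Ifngr1 (0.63) and Ifngr2 (−0.31) were still called.

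Of 17 genes that sense nucleic acids or pass the signal on to interferon production, 2 rose and 7 fell at any fold. Among all genes tested these shares were 27.3% and 24.3%, and 20.4% and 9.68% over 2-fold. The median of the 17 genes was −0.22. Over 2-fold, Tlr7, the endosomal receptor for single-stranded RNA, rose from 13.2 to 19.0 normalised counts in WT to 88.0, 138 and 161 in the Mmp13-/- samples (log2 2.99, SE 0.32, adjusted p = 0.000134). Mavs, the mitochondrial adaptor of RIG-I and MDA5, fell (log2 −1.10, SE 0.18, adjusted p = 0.000775), as did Traf3, a ubiquitin ligase downstream of it (log2 −1.15, SE 0.15, adjusted p = 0.000285). After GC content correction both were smaller and still called (log2 −0.49 and −0.61). In that fit 6 genes of the list rose and 3 fell at any fold, where 23.8% of all genes rose.

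Of 6 feedback genes, 2 rose and 2 fell at any fold, near the 27.3% and 24.3% of all genes. Socs1 (log2 −1.11, SE 0.24, adjusted p = 0.00337) and Socs3 (log2 −1.04, SE 0.18, adjusted p = 0.00106), inhibitors of the receptor kinases, fell over 2-fold. Neither passed the test after GC content correction (log2 −0.13 and −0.06, adjusted p = 0.660 and 0.814).

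Other interferon-induced genes were called higher more often than lower. Of 26, 12 were called over 2-fold higher and none lower, against 20.4% and 9.68% of all genes. At any fold 17 rose and 3 fell, against 27.3% and 24.3%, and the median was 0.82. After GC content correction 16.3% of all genes were called over 2-fold higher, and 745 of the 24534 genes tested over 2-fold lower. Of the 26, 14 were then over 2-fold higher and none fell. The 3 with the smallest adjusted p were Ifi204 (log2 2.08, SE 0.21, adjusted p = 0.000103), Ifi203 (1.94, SE 0.21, adjusted p = 0.000126) and Ifi209 (2.93, SE 0.33, adjusted p = 0.000149), neighbouring genes of the family that binds DNA. Ifi209 had 23.4 to 35.4 normalised counts in WT and 217, 286 and 128 in the Mmp13-/- samples, so it was lowest in sample 6 of the 3.

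Of 23 GTPases and antigen presentation genes that answer mainly to type II interferon, 6 were called over 2-fold higher and none lower. At any fold 11 rose and 1 fell, and the median was 0.74. Among all genes tested, 20.4% were called over 2-fold higher and 9.68% lower, and at any fold 27.3% rose and 24.3% fell. Over 2-fold the share of the 23 genes called higher lies near that of all genes. Without sample 6 it was 4 genes, against 19.7% of all genes in that fit. The 6 were Ifi47 (log2 2.77, adjusted p = 0.000223), Iigp1 (2.05, adjusted p = 0.000736), Tgtp2 (1.91, adjusted p = 0.000311), Tgtp1 (1.56, adjusted p = 0.00277), Gbp3 (1.32, adjusted p = 0.00523) and Gbp2 (1.07, adjusted p = 0.0247). All code for GTPases that attack the vacuoles of intracellular microbes, and Tgtp1 and Tgtp2 are near copies. Gbp2 lost its call after GC content correction (adjusted p = 0.0528) and without sample 6 (adjusted p = 0.0709). Ifi47 had 12.7, 26.9 and 33 normalised counts in WT and 136, 160 and 201 in the Mmp13-/- samples.

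**Figure D5:**
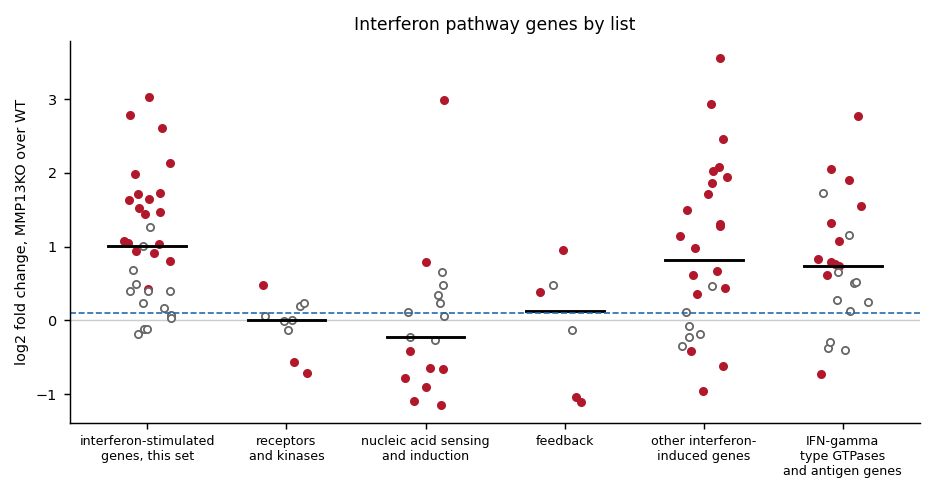
Log2 fold change, Mmp13-/- over WT (MMP13KO on the axis), of the 33 genes and of the genes tested in 5 other lists of the interferon pathway. Filled points have an adjusted p below 0.05, black bars are list medians (1.003 for the 33 genes and −0.22 for nucleic acid sensing and induction) and the dashed line is the median of all genes tested, 0.10.

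Markers of blood cells were also higher in the Mmp13-/- samples, where 20.4% of all genes tested were called over 2-fold higher. All 5 monocyte markers rose over 2-fold, and their summed level was 267 to 444 normalised counts in WT and 4325, 5365 and 2806 in the Mmp13-/- samples 1, 2 and 6. Of 9 neutrophil markers 8 rose over 2-fold, summed at 3947 to 8073 in WT and 37772, 48272 and 19803 in the Mmp13-/- samples. All 6 B cell markers did so (176 to 349 against 888 to 1127), as did 4 of 7 T and NK cell markers (140 to 174 against 388 to 402), 4 of 9 macrophage markers (3583 to 3665 against 5145 to 6560) and 3 of 5 erythroid markers (12920 to 20883 against 34919 to 67033). Among the 3 Mmp13-/- samples the T and NK cell sum was highest in sample 6, and the sums of the other 5 lists were lowest in it. Of 6 plasmacytoid dendritic cell markers, Siglech rose (log2 1.70, adjusted p = 0.00189), Cox6a2, which muscle also expresses, fell, and Klk1 was too low for the count filter.

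Markers of the tissue itself were called in both directions. For all genes tested the shares were 20.4% higher and 9.68% lower over 2-fold, and 27.3% and 24.3% at any fold. All 5 proliferation markers rose over 2-fold, 5 of 6 skeletal muscle markers fell over 2-fold, and of 7 odontoblast markers 3 rose and 2 fell. Of 5 endothelial markers 1 rose over 2-fold and 3 fell at any fold, of 7 epithelial and ameloblast markers 2 fell over 2-fold, and of 7 pulp mesenchyme markers 1 rose and 2 fell over 2-fold. After GC content correction none of the epithelial and ameloblast markers and 1 of the endothelial ones was called lower. In that fit 745 of the 24534 genes tested were called over 2-fold lower. No marker was at 0 in every sample. The part of these cell types in the levels of the 33 genes was not tested.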

How the data were processed

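Dental pulp RNA of 3 WT and 3 Mmp13-/- mice, described by the study as independent biological samples, was sequenced in paired reads. The deposited table of 53342 genes holds estimated counts per gene, made by the authors in Strand NGS from reads aligned to mm10. It also holds log2 values that the authors made from those counts with DESeq size factors and a floor of 1, after which every gene was centred to a median of 0, and 100% of them were computed again within 0.01. The aligner, the annotation release and the use of strand are not given in the sources used here, so overlapping and antisense genes could share reads.

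Estimated counts were rounded, and edgeR 4.0.16 was run in R 4.3.3 (quasi-likelihood test, TMM factors, its filter on low counts by genotype, Benjamini-Hochberg adjustment over all genes tested, no covariate). The replicate numbers give no pairs. Samples of 1 genotype differed by more than sampling noise (chi-square per degree of freedom of 21.9 at the least), so each was counted as its own sample. DESeq2 1.42.0, limma 3.58.1 on the log2 values, other scalings and filters, a GC content correction, a subtraction of background reads, the study's procedure and leaving out each sample were the alternatives, and the joint GC and background correction was chosen after seeing the data. The GC content correction used a loess curve (span 0.4) per sample. The background rate per kilobase of exon came from odorant and vomeronasal receptor genes.

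The 33 genes and all lists were chosen with earlier results of these data known. Every one of the 33 is named, with Mmp13. From each other list of the pathway, genes over 2-fold are named where there are at most 6, and otherwise the 3 of smallest adjusted p each way. A gene of the pathway lists is not reported here and was left out of their counts. Gene positions and exon lengths are those of GENCODE M21 and promoter windows those of RefSeq, both on GRCm38.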

Additional observations from a re-analysis of the deposited data

How the results depend on the processing

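No paired analysis was possible because the genotypes share the replicate number 2 and no other. None of the 33 genes was called over 2-fold lower in any of the 18 alternatives. The number called over 2-fold higher, 15 with all samples, lay between 11 (limma and the study's procedure) and 18 (total counts alone and upper-quartile factors). Of all genes, 20.6% and 25.4% were called so in the first pair of fits, and 24.4% and 23.9% in the second. At any fold the number lay between 17 (limma) and 26 (GC content correction), against 26.8% and 23.8% of all genes. With 1 sample left out the numbers ranged from 10 to 17 and from 16 to 20, with none lower at either limit (0 to 0). The shares of all genes called higher then ranged from 17.9% to 21.4% and from 21.6% to 27.5%. The median log2 fold change of the 33 genes then ranged from 0.54 to 1.11, with the lowest value without Mmp13-/- sample 6. Under the other alternatives it ranged from 0.87 (no filter) to 1.27 (upper-quartile factors). The study's procedure called 1 gene lower at any fold, Stat2 (log2 −0.24). The median of all genes was 0.10, and 0.32 with upper-quartile factors, 0.21 with total counts alone and 0.22 after GC content correction. It was 0.65 under the study's procedure, where that of the 33 genes was 0.88, and without a filter it was 1.30, above their 0.87, with 49715 genes tested. Of all calls over 2-fold, 67.8% were higher in Mmp13-/- pulp, and 81.4% with upper-quartile factors and 84.3% after GC content correction.

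No called gene turned its direction, and 7 of the 14 genes that were not called did so at least once. Stat2 gave 0.28 after GC content correction, 0.27 with background subtraction added and 0.032 with upper-quartile factors. Irf1 gave 0.40 under each of the first pair, 0.0050 with at least 10 counts in every sample, 0.020 with total counts alone and 0.083 with upper-quartile factors. Adar gave 0.48 and 0.48 under the same pair, 0.0094 with at least 10 counts, 0.018 with background subtraction and 0.10 with upper-quartile factors. Ifitm3 gave −0.042 without a filter. Ifi35 gave −0.039 with limma and with the study's procedure and −0.079 without a filter. With 1 sample left out, Dhx58 ranged from −0.090 to 0.59, Irf1 from −0.29 to 0.011, Irf7 from −0.27 to 0.31, Ifitm3 from −0.034 to 0.067 and Ifi35 from −0.087 to 0.13. The cause was not tested. The filter of 10 counts left out Zbp1, which has no value there.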
